A study of Mus musculus with 8 samples.

Results

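The photoreceptor ribbon synapse genes are Bsn, Pclo, Ctbp2, Cacna1f, Cacna2d4, Cabp4, Stx3, Cplx3, Cplx4 and Slc17a7, which together encode the ribbon, its active zone, the calcium channel beside it and the machinery that fills and fuses glutamate vesicles. They were taken by name, and their probes were those whose RefSeq accession maps to these genes, which gave 17 probes for 10 genes among 56605 probes and 22911 genes on the array. RNA came from photoreceptor cells of postnatal day 8 mice of the C57BL/6 strain, labelled Lpcat1 HZ (heterozygous, 4 arrays) or Lpcat1 KO (global knockout, 4 arrays). Lpcat1 encodes an acyltransferase that makes saturated phosphatidylcholine. To look for the primary cause of photoreceptor death, the study compared the genotypes at day 8, when it reports that this apoptosis begins in KO mice. The cells carried CD73, the product of Nt5e, and were taken from dissociated retina with magnetic beads, so that other cells could remain. The sources used here do not say whether an array stands for 1 animal or a pool.

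Photoreceptors release glutamate continuously in darkness, and light slows that release. The ribbon is a plate of protein that stands on the active zone and holds vesicles close to a cluster of L-type calcium channels, and bipolar and horizontal cells receive the signal in an invagination of the terminal. In the mouse these terminals are assembled during the first postnatal weeks, so that day 8 lies within their maturation. Several of these genes, Bsn, Pclo, Slc17a7 and Cplx3 among them, are also used by other retinal neurons.

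The signal of each probe is given as the log2 of its processed intensity minus the 75th percentile of the array, so that 0 is the level of that percentile, and only values of the same probe are compared. The percentile lay between 882 and 1024 intensity units, each array had 59.5% to 64.6% of its probes well above background, and 0 spots were saturated. The 8 arrays shared 1 slide, where the upper row (row 1) held KO and row 2 held HZ, so genotype and place on the slide cannot be told apart. The replicate number is the slide column. The probe for Lpcat1 did not separate the labels. It measured -0.81, -0.95, -1.02 and -1.17 on HZ-labelled arrays. KO-labelled arrays gave -0.97, -1.16, -1.11 and -0.85, with a KO minus HZ difference of -0.04 ± 0.11 (SE) with an adjusted p of 0.931 by limma. Whether that probe lies in the deleted part of the gene is not given in the sources used here, so KO and HZ below mean the labels of the arrays. The arrays held photoreceptor RNA by their markers. Nrl, which sets rod fate, lay at 6.94 to 7.30 and Nt5e at 4.05 to 4.39 over the 8 arrays, and each was well above background on all 8. Among markers of other neurons, Gad1 was not well above background on any array and Slc17a6 was so on 2 HZ and 0 KO arrays, but Gad2 and Slc32a1, which also mark inhibitory neurons, were well above background on all 8 arrays.

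All 10 ribbon synapse genes were well above background on all 8 arrays at their brightest probe, the probe by which each gene is reported. None of the 10 differed between KO and HZ by the thresholds the study names, a fold change of 1.2 with an adjusted p of 0.05 or a fold change of 1.5 with an adjusted p of 0.5. The looser pair called 1.46% of all 14848 tested genes (0.33% higher and 1.13% lower on KO) and 1.04% of 34303 tested probes, and the stricter pair called 0 of either. At an unadjusted p of 0.05 the count was 1 of 10 genes and 3 of 16 tested probes, where 9.3% of all genes and 8.17% of all probes were counted. The differences of the 10 genes ran from -0.22 (Cacna1f) to 0.30 (Cplx3), with 8 genes higher and 2 lower on KO, and 56.8% of all tested genes were higher. Their median difference was 0.07, against 0.03 over all tested genes. The median size of a difference, whatever its sign, was 0.14 for the members and 0.12 for all genes, and the median SE was 0.14 and 0.12. These are descriptions of a chosen list and carry no test of their own. Fewer cells of a type and less RNA per cell cannot be told apart in such bulk samples. The p-values measure the spread between the arrays of a group, which may be technical in part.

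**Figure D1:**
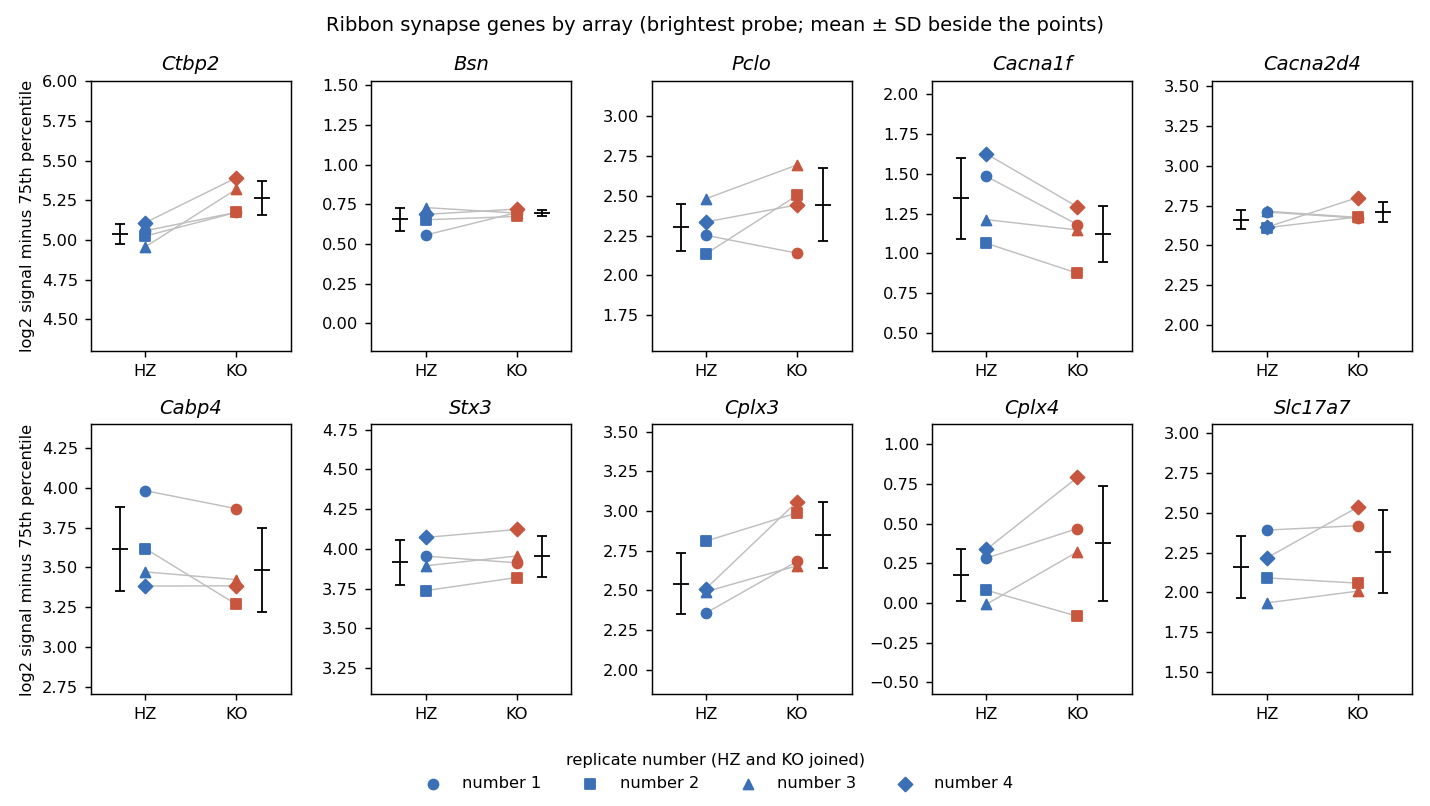
Log2 signal minus the array's 75th percentile of each ribbon synapse gene at its brightest probe on the 4 HZ and 4 KO arrays, with lines joining arrays of the same replicate number and the mean ± SD of each group beside the points. Every panel spans the same height on the log2 scale. The groups do not overlap for Ctbp2, and Cacna1f is lower on KO in all 4 numbers while its groups overlap.

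Among the 16 tested probes, 5 differed in the same direction in all 4 replicate numbers, where 25.2% of all tested probes did. They measure Ctbp2, Cplx3, Stx3 and Bsn, higher on KO, and Cacna1f, lower on KO. The bases just upstream of the transcription start of these 5 genes are shown to place each gene and, for Ctbp2, to set apart its 2 listed starts. Each is the 250 bases before a start in RefSeq, build GRCm38.p6, written 5′ to 3′ on the gene's strand. Capitals mark the letters TAATCC on either strand (GGATTA when read on the other), the core motif bound by CRX, a homeodomain factor of photoreceptors.
Ctbp2 (chr7:133015248-133015497, minus strand): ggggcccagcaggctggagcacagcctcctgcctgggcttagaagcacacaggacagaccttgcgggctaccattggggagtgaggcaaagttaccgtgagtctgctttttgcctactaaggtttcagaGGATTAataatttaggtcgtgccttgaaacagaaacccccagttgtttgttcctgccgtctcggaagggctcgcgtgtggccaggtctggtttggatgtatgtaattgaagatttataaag
Ctbp2 (chr7:133081861-133082110, minus strand): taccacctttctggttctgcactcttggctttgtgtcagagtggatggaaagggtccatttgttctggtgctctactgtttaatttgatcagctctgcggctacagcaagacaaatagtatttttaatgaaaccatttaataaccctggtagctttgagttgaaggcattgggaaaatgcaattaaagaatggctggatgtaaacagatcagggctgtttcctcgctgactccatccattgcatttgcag
Cplx3 (chr9:57606282-57606531, minus strand): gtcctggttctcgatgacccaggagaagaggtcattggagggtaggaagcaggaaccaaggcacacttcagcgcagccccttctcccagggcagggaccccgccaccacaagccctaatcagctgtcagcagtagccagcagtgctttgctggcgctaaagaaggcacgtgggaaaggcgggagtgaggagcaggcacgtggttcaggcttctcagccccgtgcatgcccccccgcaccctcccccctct
Stx3 (chr19:11819404-11819653, minus strand): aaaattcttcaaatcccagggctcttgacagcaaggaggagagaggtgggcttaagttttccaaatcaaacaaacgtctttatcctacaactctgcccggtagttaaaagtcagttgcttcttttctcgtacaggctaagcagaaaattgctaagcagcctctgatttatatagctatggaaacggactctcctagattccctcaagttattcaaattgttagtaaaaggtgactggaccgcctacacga
Bsn (chr9:108190384-108190633, minus strand): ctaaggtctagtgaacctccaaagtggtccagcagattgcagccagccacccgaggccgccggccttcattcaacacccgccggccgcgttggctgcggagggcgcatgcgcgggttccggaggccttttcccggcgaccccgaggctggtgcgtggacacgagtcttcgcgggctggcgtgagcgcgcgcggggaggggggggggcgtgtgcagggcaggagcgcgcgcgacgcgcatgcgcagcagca
Cacna1f (chrX:7606853-7607102, plus strand): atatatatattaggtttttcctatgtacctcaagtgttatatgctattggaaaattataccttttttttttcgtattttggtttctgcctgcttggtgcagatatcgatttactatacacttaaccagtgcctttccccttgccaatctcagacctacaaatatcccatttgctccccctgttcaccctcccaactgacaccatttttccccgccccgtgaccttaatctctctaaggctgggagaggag
The motif was found in the Ctbp2 window of the first line, beginning 121 bases before the start, and in 1 of the 8 windows listed for 7 of the 10 genes, against 6.25% of all 32851 windows in the table. A match is a description of letters. Of the windows shown, that of Bsn had the highest share of G and C, at 71.6%, and that of Cacna1f had 41.6%.

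Ctbp2 encodes RIBEYE, the main protein of the ribbon plate, from an internal start, and the transcriptional corepressor CtBP2 from other starts. Its probe (NM_009980) measured 5.06, 5.03, 4.96 and 5.11 on HZ arrays 1 to 4 and 5.17, 5.17, 5.32 and 5.39 on KO arrays 1 to 4. Every KO array lay above every HZ array, and Ctbp2 was the member gene of 10 at its brightest probe whose groups did not overlap, where 7.99% of all tested genes had groups that did not overlap and 5.48% did so with KO higher. The difference was 0.23 ± 0.09 (SE), a 1.17-fold higher signal, with a 95% interval of 0.03 to 0.43, an unadjusted p of 0.0294 and an adjusted p of 0.573 by limma. By number the differences were 0.12, 0.15, 0.36 and 0.28. The separation was not kept under every scaling. In the authors' values, which use the same percentile shift, the groups did not overlap and differed by 0.24 (adjusted p of 0.525 by limma). The difference was 0.15 after quantile normalization, 0.20 with the percentile set by the probes well above background throughout, and 0.08 after normexp background correction, and the groups overlapped in each of these. With a single probe, transcripts of RIBEYE and of the corepressor could not be told apart here.

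Bsn encodes Bassoon, the scaffold that anchors the ribbon to the active zone. At its brightest probe (NM_007567) the HZ arrays read 0.56, 0.65, 0.73 and 0.69 and the KO arrays 0.70, 0.67, 0.69 and 0.72. The KO values lay within the span of the HZ values, and the difference was 0.04 ± 0.07 (SE), with a 95% interval of -0.13 to 0.21 and an adjusted p of 0.885 by limma. A second, dim probe named by the same accession read -5.13, -4.98, -4.99 and -5.29 on HZ and -4.53, -4.80, -4.61 and -4.39 on KO. There the groups did not overlap, with a difference of 0.52 ± 0.12 (SE), a 95% interval of 0.25 to 0.79, an unadjusted p of 0.00218 and an adjusted p of 0.368 by limma. The fold of 1.43 was under the 1.5 of the looser pair. This probe was well above background on 3 HZ and 4 KO arrays, and its difference was 0.19 after normexp background correction, with groups that overlapped, and 0.71 after quantile normalization. The brightest probe of Bsn also moved with the background correction, to 0.18 after normexp, where its groups did not overlap (adjusted p of 0.452 by limma). Without HZ array 1 the difference at the brightest probe was 0.0069. The remaining probe, named by XM_006511634, was not well above background on any array and was not tested.

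Pclo encodes Piccolo, a relative of Bassoon, of which ribbon synapses use a short form. Its brightest probe (NM_001110796) read 2.25, 2.14, 2.48 and 2.34 on HZ and 2.14, 2.50, 2.69 and 2.44 on KO. The groups overlapped, with KO number 1 at the low end, and the difference was 0.14 ± 0.14 (SE), with an adjusted p of 0.778 by limma. Without KO array 3 the difference at this Pclo probe was 0.06, and without KO array 1 it was 0.25. A dimmer probe of the same accession differed by -0.02 ± 0.18 (SE), and that named by NM_011995 differed by 0.26 ± 0.32 (SE). At the latter probe HZ ran from -5.24 to -3.84 and KO from -4.55 to -4.02, so that the spread among HZ arrays was wider than the difference.

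Cacna1f encodes the pore-forming subunit of the L-type calcium channel that opens at the ribbon and drives release. Its probe (NM_019582) read 1.48, 1.06, 1.21 and 1.63 on HZ and 1.18, 0.87, 1.15 and 1.29 on KO. It was lower on KO within all 4 numbers, by -0.30, -0.19, -0.07 and -0.33, the only member gene lower in all 4 of them, where 9.84% of all tested genes were. The groups overlapped all the same, since numbers 1 and 4 were high and number 2 low in both. Numbers ran in the same order, 4, 1, 3 and 2 from high to low, in both groups, which held for 1 of 10 member genes. The difference was -0.22 ± 0.15 (SE), with a 95% interval of -0.57 to 0.12 and an adjusted p of 0.712 by limma, or 0.413 with the replicate number as a block. Without HZ array 4 the difference of Cacna1f was -0.13, and after normexp background correction the sign turned, at 0.03.

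Cacna2d4 encodes the auxiliary subunit that brings this channel to the terminal. The HZ arrays read 2.71, 2.61, 2.71 and 2.61 and the KO arrays 2.67, 2.68, 2.68 and 2.80 (NM_001033382). Groups overlapped and differed by 0.04 ± 0.08 (SE), with an interval of -0.13 to 0.22 and an adjusted p of 0.876 by limma, and after normexp background correction the sign turned, to -0.18 with KO lower and no overlap (adjusted p of 0.471 by limma). Cabp4 encodes a calcium-binding protein that tunes the channel's opening. Its brightest probe (NM_144532) read 3.98, 3.62, 3.47 and 3.38 on HZ and 3.87, 3.27, 3.42 and 3.38 on KO. Number 1 was the highest array of each group, and the difference of -0.13 ± 0.17 (SE) had an adjusted p of 0.842 by limma. Without HZ array 1 the difference of Cabp4 was -0.0049. Its second probe, of the same accession, differed by -0.19 ± 0.21 (SE).

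Stx3 encodes Syntaxin 3, the plasma membrane SNARE protein that ribbon synapses use in place of the syntaxin of conventional synapses. The brightest of its 3 probes (NM_001286543) read 3.95, 3.74, 3.89 and 4.07 on HZ and 3.91, 3.82, 3.95 and 4.12 on KO. Groups overlapped almost whole, with a difference of 0.04 ± 0.11 (SE), an interval of -0.20 to 0.28 and an adjusted p of 0.925 by limma. The probe named by NM_152220 read 2.99, 2.80, 2.91 and 2.89 on HZ and 3.22, 3.30, 3.20 and 3.24 on KO. All KO arrays lay above all HZ arrays there, by 0.34 ± 0.08 (SE), 1.27-fold, with an interval of 0.16 to 0.52, an unadjusted p of 0.0022 and an adjusted p of 0.368 by limma. By number this probe differed by 0.23, 0.50, 0.28 and 0.36. Its groups also did not overlap after quantile normalization, after normexp background correction or in the authors' values. The same held with the percentile set by the probes well above background throughout. The remaining alternatives kept the same values or left an array out, so they could not have made the groups overlap. Over all alternatives its difference ranged from 0.30 to 0.37, with adjusted p-values from 0.169 to 0.82 by limma or the t-test. The remaining probe, also named by NM_001286543, differed by 0.08 ± 0.15 (SE). Which exons each Stx3 probe covers is not given in the sources used here. Of the 16 tested member probes, 3 had groups that did not overlap, those of Ctbp2, of Stx3 and the dim probe of Bsn, all with KO higher, where 4.19% of all tested probes had KO higher without overlap.

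Cplx3 and Cplx4 encode the complexins of retinal ribbon synapses, small proteins that clamp and prime SNARE complexes. The probe of Cplx3 (NM_146223) read 2.36, 2.81, 2.49 and 2.51 on HZ and 2.68, 2.99, 2.66 and 3.06 on KO. It was higher on KO in all 4 numbers, by 0.32, 0.18, 0.16 and 0.55, but HZ number 2 lay above KO numbers 1 and 3. The difference of 0.30 ± 0.14 (SE), 1.23-fold, was the largest of the 10 genes at their brightest probes, with an interval of -0.02 to 0.62 and an adjusted p of 0.622 by limma. Across the alternatives Cplx3 kept its sign and ranged from 0.23 to 0.39. The probe of Cplx4 (NM_145493) read 0.28, 0.08, -0.01 and 0.34 on HZ and 0.47, -0.08, 0.32 and 0.79 on KO. KO number 4 was the highest and KO number 2 the lowest of the 8 arrays, so the KO spread (SD 0.36) exceeded the difference of 0.20 ± 0.18 (SE), which had an adjusted p of 0.772 by limma. Without KO array 4 the difference of Cplx4 was 0.06, and without KO array 2 it was 0.35.

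Slc17a7 encodes the transporter that loads glutamate into vesicles. Its probe (NM_182993) read 2.39, 2.09, 1.93 and 2.22 on HZ and 2.42, 2.06, 2.01 and 2.54 on KO. The groups overlapped, with numbers 1 and 4 high in both, and the difference was 0.10 ± 0.16 (SE), with an interval of -0.26 to 0.45 and an adjusted p of 0.867 by limma. Without KO array 4 the difference of Slc17a7 was 0.0034.

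**Figure D2:**
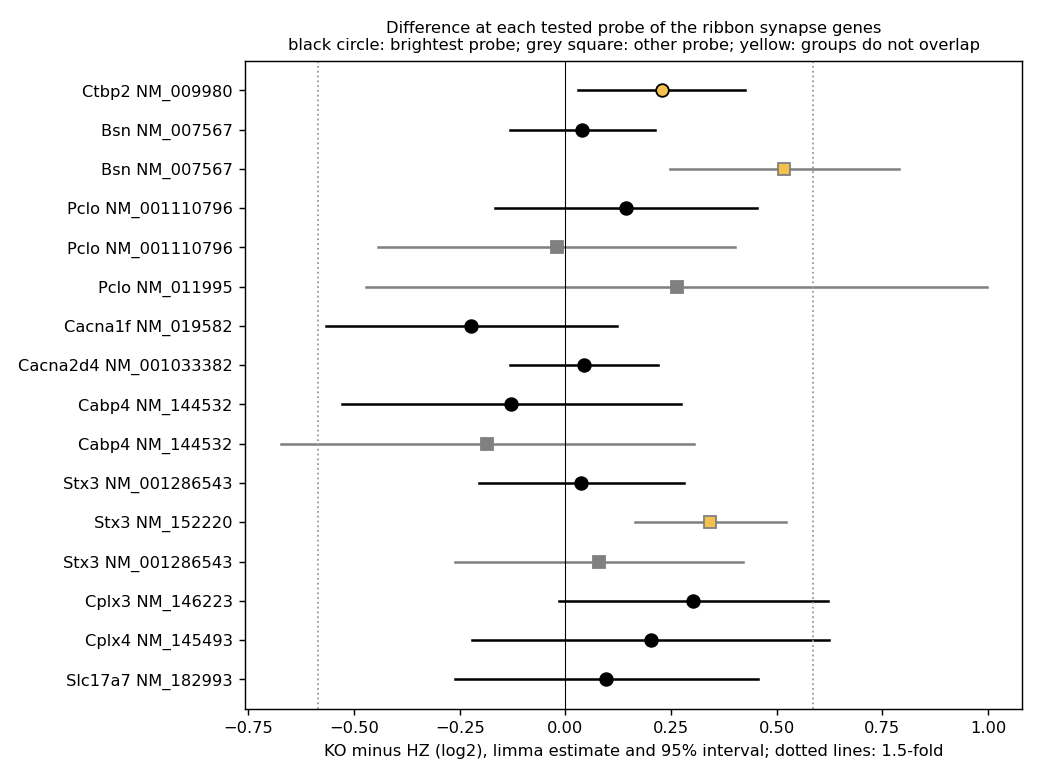
KO minus HZ on the log2 scale at the 16 tested probes of the ribbon synapse genes, with the limma estimate as a point and its 95% interval as a line; probes are named by their RefSeq accession, dotted lines mark a fold of 1.5, and yellow points mark groups that do not overlap. The 3 yellow points are Ctbp2 at 0.23, the dim Bsn probe at 0.52 and the Stx3 probe at 0.34.

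The intervals set the size of change that these 8 arrays allowed. At their brightest probes the 95% intervals of Bsn, Ctbp2, Cacna1f, Cacna2d4, Cabp4, Stx3, Pclo and Slc17a7 lay within a 1.5-fold change in either direction, while those of Cplx3 and Cplx4 reached above it, to 0.62 for each. These are intervals of single probes, unadjusted for the number of probes. They come from the fit without the replicate number as a block. With that block the SE was 0.097 for Cplx3 and 0.12 for Cplx4, against 0.14 and 0.18 without it, and intervals are not given.

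Values were also described by replicate number. The mean of the KO and HZ array of a number ranged, over the 4 numbers, more widely than KO and HZ differed in 9 of 10 genes and 13 of 16 probes. The exceptions were the probe of Ctbp2, with a range of 0.15 against a difference of 0.23, and the probes of Bsn and Stx3 whose groups did not overlap. A range over 4 means of 2 arrays tends to exceed a difference between 2 means of 4 arrays by noise alone. These counts therefore cannot tell whether replicate number had an effect, and the share over all tested genes was not computed. The range over numbers was 0.57 for Cplx4, 0.54 for Cabp4, 0.49 for Cacna1f and 0.44 for Slc17a7. Number 4 was the highest for 5 genes, Cacna1f, Cacna2d4, Ctbp2, Stx3 and Cplx4. Number 2 was the lowest for the same 5. In all, 3 of 10 genes differed in the same direction in all 4 numbers, Ctbp2 and Cplx3 higher and Cacna1f lower, where 28.6% of all tested genes did. With the replicate number as a block, 0 of the 10 genes were called at either pair of thresholds, and their adjusted p-values ran from 0.386 (Cplx3) to 0.823 (Stx3).

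The wider synaptic genes were described in 6 groups by role, and 0 of the 62 tested genes in them were called at either pair of thresholds at their brightest probe. Active zone genes split into 5 higher and 4 lower on KO of 9 tested, with a median difference of 0.03. Ppfia2, a liprin that binds active zone scaffolds, read -0.05, -0.21, 0.06 and -0.04 on HZ and -1.32, -0.52, -0.33 and -2.25 on KO. Every KO array lay below every HZ array there, but KO arrays spread widely, and the difference of -1.05 ± 0.39 (SE) had an adjusted p of 0.561 by limma. Ppfia2 passed the looser pair of thresholds with the replicate number as a block (adjusted p of 0.398 by limma), after normexp background correction (0.284), with trend and robust eBayes (0.433), with the filter requiring all 8 arrays above background (0.492) and without HZ array 2 (0.334), and in no other alternative run. Without KO array 4 the difference of Ppfia2 was -0.66. Ppfia3, another liprin of the list, named here after its values were seen, went the other way without overlap, from 2.26 to 2.45 on HZ to 2.56 to 2.70 on KO, by 0.25 ± 0.08 (SE) with an adjusted p of 0.518 by limma. Unc119, a lipid-binding carrier that also associates with RIBEYE, differed by -0.31 ± 0.17 (SE) at its brightest probe and by 0.16 ± 0.09 (SE), higher on KO in all 4 numbers, at a second probe of the same accession. Without KO array 4 the difference of Unc119 at its brightest probe was -0.18. Rims1, a scaffold that ties vesicles to calcium channels, differed by 0.37 ± 0.57 (SE) with the sign turned without KO array 2.

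Calcium channel and calcium handling genes split into 5 higher and 5 lower, with a median of -0.02. Cacna2d2, another auxiliary channel subunit, read 1.52 to 1.74 on HZ and 1.19 to 1.44 on KO without overlap, a difference of -0.27 ± 0.10 (SE) with an adjusted p of 0.547 by limma. Its 2 dimmer probes differed by -0.53 ± 0.18 (SE) and 0.41 ± 0.41 (SE). Cacna1d, the pore of a related L-type channel, differed by -0.71 ± 0.60 (SE), with HZ number 4 at -2.35 far above the other HZ arrays, and by -0.046 without that array. Atp2b2, a plasma membrane calcium pump, differed by -0.24 ± 0.13 (SE).

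Vesicle fusion genes had a median of -0.08 over 10 tested, 4 higher and 6 lower. Stx1a, the conventional syntaxin, differed by -0.19 ± 0.11 (SE), Cplx2, a complexin of conventional synapses, by -0.18 ± 0.15 (SE), and Napa, an adaptor for SNARE disassembly, by 0.14 ± 0.11 (SE). Vesicle and glutamate genes had a median of 0.05 over 11 tested, 6 higher and 5 lower, and this median was -0.03 after quantile normalization. Slc1a2, a glutamate transporter of the plasma membrane, was 3.19 to 3.32 on HZ and 3.33 to 3.44 on KO without overlap, a difference of 0.13 ± 0.07 (SE) with an adjusted p of 0.674 by limma. Slc17a8, another vesicular glutamate transporter, differed by -0.33 ± 0.19 (SE), and Sv2b, a vesicle membrane protein, by -0.09 ± 0.07 (SE).

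Terminal scaffold and trans-synaptic genes had a median of -0.06 over 12 tested, 4 higher and 8 lower. Lin7c, a scaffold protein of the terminal membrane, was higher on KO without overlap, by 0.19 ± 0.09 (SE) with an adjusted p of 0.635 by limma. Elfn2 differed by -0.24 ± 0.18 (SE) and Nrxn3, a neurexin, by -0.19 ± 0.15 (SE). The genes of the receiving ON bipolar dendrite had a median of 0.13 over 10 tested, 6 higher and 4 lower. Trpm1, the channel that closes on glutamate, differed by -0.42 ± 0.18 (SE) at its brightest probe. Its 4 other tested probes ran from -1.78 to 0.20, and the lowest of these, named by NM_018752, did not overlap between groups (adjusted p of 0.368 by limma) and passed the looser pair of thresholds. By number this lowest probe differed by -1.92, -1.25, -1.30 and -2.64. The mean level of the retinal pigment epithelium markers described below differed by -1.54, -0.74, -1.25 and -2.36. Grm6, of the ON bipolar group, differed by 0.35, -1.08, 0.35 and -0.05 at its brightest probe. Whether RNA of other cells adds to this Trpm1 probe was not tested. Gnao1, the G protein subunit upstream of the channel, differed by 0.26 ± 0.16 (SE) at its brightest probe and by -0.05 and -0.11 at the others, and Nyx, which helps place the channel, differed by 0.21 ± 0.24 (SE). The group shares Grm6, Trpm1 and Pcp2 with the bipolar marker list and Gnb3 with the cone list.

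**Figure D3:**
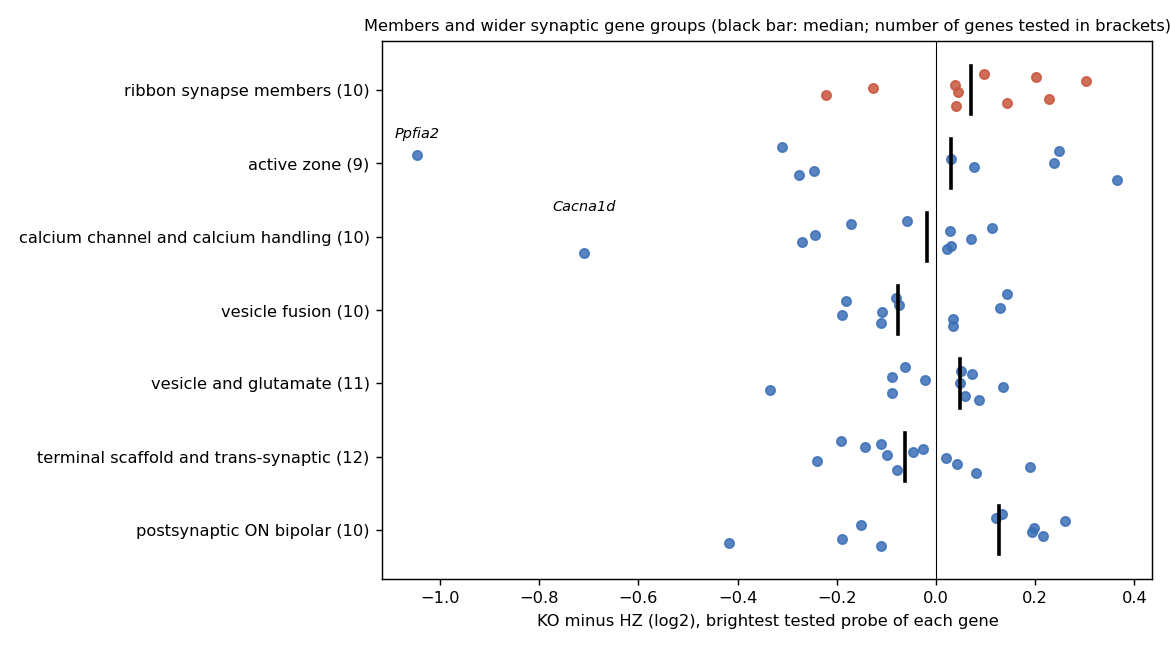
KO minus HZ on the log2 scale of each tested gene at its brightest probe, for the 10 ribbon synapse genes and for 6 wider groups of synaptic genes, with a black bar at each group's median. Medians lie between -0.08 and 0.13, and Ppfia2 at -1.05 and Cacna1d at -0.71 lie farthest from 0.

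Cell type markers were read on the same arrays. The mean level of the 10 rod markers was 5.73 to 6.08 on HZ and 5.68 to 5.93 on KO, with 2 genes higher and 8 lower and a median difference of -0.06. All 8 cone markers were higher on KO, with a median of 0.15 and 0 called, and their mean level overlapped, at 0.82 to 2.45 on HZ and 1.56 to 2.31 on KO. The mean level of the cone list differed by 0.74, -0.33, -0.50 and 1.02 in numbers 1 to 4, and its mean difference of 0.23 was -0.06 without HZ array 1, an alternative chosen after seeing the data. Rod and cone terminals share most of the ribbon genes, so their parts in these values cannot be told apart. Of 11 bipolar markers, 9 were lower on KO, with a median of -0.39 and 1 called at the looser pair, and the mean level was 0.97 to 1.86 on HZ and 0.75 to 1.22 on KO. HZ array 2 was the highest of the 8 for the bipolar list, whose mean difference was -0.32 with all arrays and -0.13 without that array. Grm6, the glutamate receptor of ON bipolar cells, differed by -0.11 ± 0.25 (SE).

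The lists for the retinal pigment epithelium (RPE) and for microglia also held genes called at the looser pair. All 9 tested RPE markers of 10 listed were lower on KO, with a median of -1.79, 7 called at the looser pair and a mean level of -2.26 to -0.70 on HZ and -3.74 to -2.24 on KO. Rpe65, the isomerase of the visual cycle, differed by -2.38 ± 0.54 (SE). All 8 microglia markers were higher on KO, with a median of 0.83, 1 called at the looser pair and a mean level of -3.34 to -2.12 on HZ and -2.44 to -1.61 on KO. The called marker, Tmem119, was dim, with means of -5.84 on HZ and -5.08 on KO. It was well above background on 1 HZ and 3 KO arrays, so it met the filter of 4 arrays mostly through KO, where it was higher. The mean level of the microglia list differed by 1.73, 0.89, 0.57 and -0.05 in numbers 1 to 4. Medians were -0.13 over 7 Muller glia markers and 0.13 over 4 tested of 6 horizontal cell markers. Of 10 amacrine markers 5 were tested, with a median of -0.14, and Gad1 and Slc18a3 were not well above background on any array. Of 7 ganglion cell markers 1 was tested, at -0.80, and Nefl, Pou4f2, Rbpms and Sncg were not well above background on any array. The part of these cell types in the ribbon gene values was not tested.

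**Figure D4:**
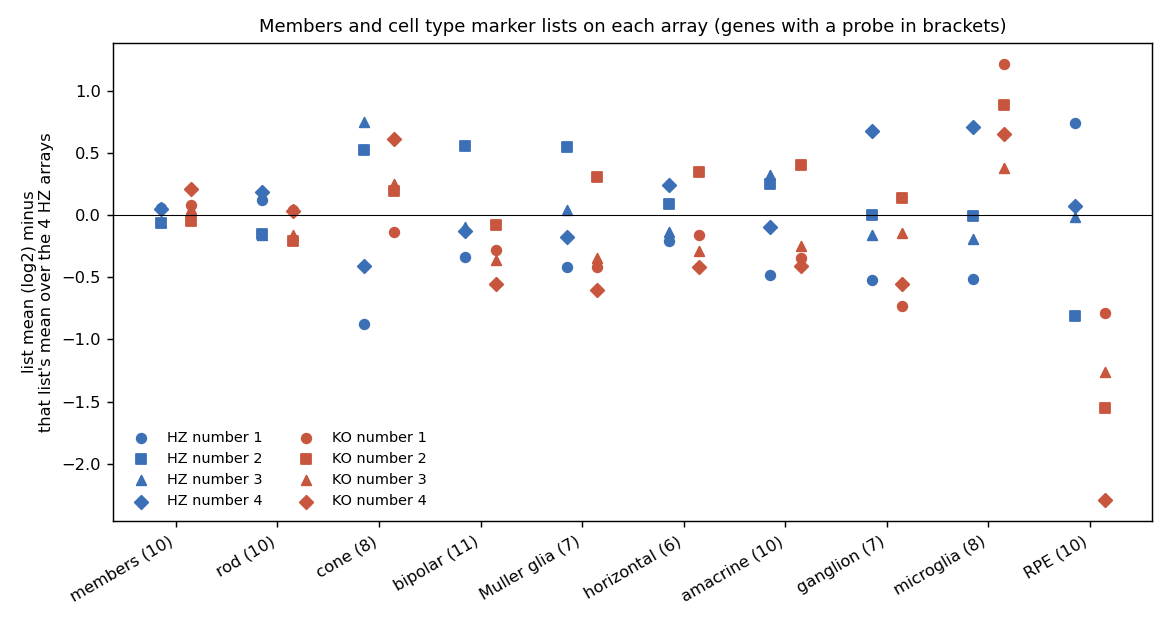
Mean log2 signal of the ribbon synapse genes and of 9 cell type marker lists on each array, drawn as the difference from the same list's mean over the 4 HZ arrays, with HZ in blue, KO in red and a symbol for each replicate number. The ribbon synapse genes overlap between groups, at 2.38 to 2.50 on HZ and 2.40 to 2.65 on KO before centring, and the RPE markers reach lowest on KO.

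**Figure D5:**
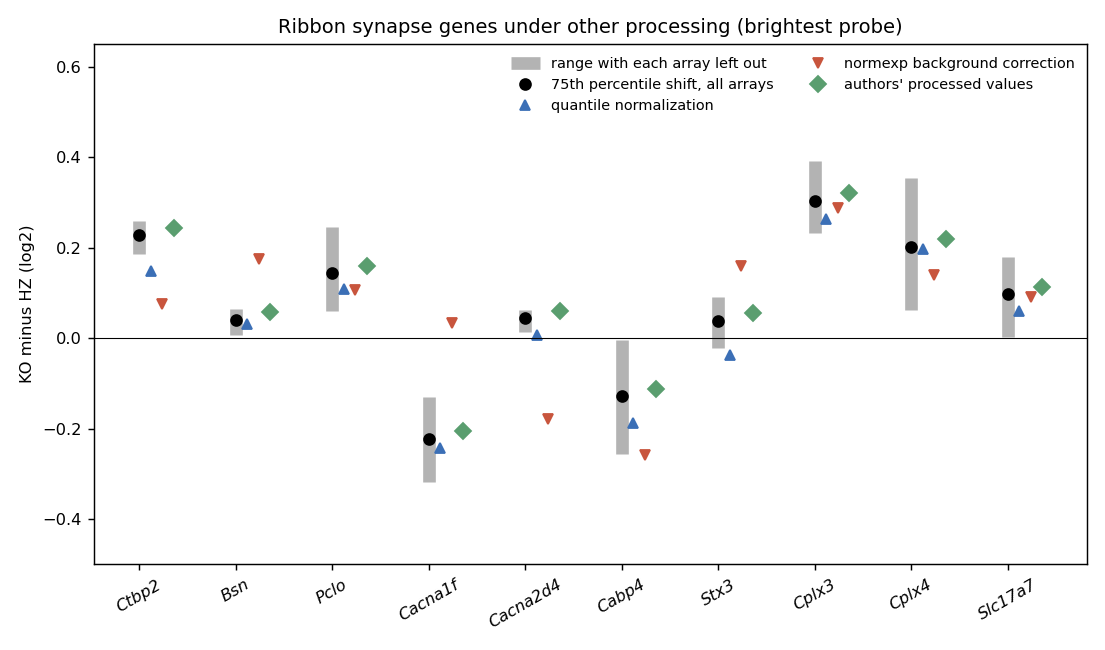
KO minus HZ on the log2 scale of each ribbon synapse gene at its brightest probe with the 75th percentile shift and all arrays (black), the range over fits that leave out each array in turn (grey), and under quantile normalization, normexp background correction and the authors' processed values. Cplx3 stays between 0.23 and 0.39, while Cacna1f, Cacna2d4 and Stx3 fall on both sides of 0.

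The plot of the ribbon genes under other processing shows how far each estimate moved. Over the alternatives the median of the 10 genes ranged from 0.02, without KO array 4, to 0.14, with the mean of each gene's tested probes in place of its brightest probe. The count of genes higher on KO was 7 or 8 of 10 in the fits that used the brightest probe. In no fit did a member gene pass either pair of thresholds.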

How the data were processed

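Data of 8 arrays from CD73-positive photoreceptor cells of postnatal day 8 mice were grouped by label. The authors deposited single-color signal intensities per spot, background-subtracted and detrended by Agilent Feature Extraction 10.7.1.1 (submitters' processing notes). For 53586 probes the authors deposited GeneSpring log2 values as well, shifted to the 75th percentile and centred on each probe's median, which served as an alternative. Of 62976 spots, 59305 were not controls.

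Log2 signals minus each array's 75th percentile were computed, spots with an outlier mark were dropped and repeated spots were averaged per probe. Testing required a probe to be well above background on 4 or more arrays and to have 3 or more values per group (34303 probes). Accessions were named with a RefSeq table of GRCm38.p6 (32994 of 56605 probes matched), also the source of the promoter sequences. The array design uses another build, so no coordinates are given except those of the promoter windows, which are of GRCm38.p6. The test was limma's (version 3.58.1; lmFit, then eBayes), two-sided, with Benjamini-Hochberg adjustment over all tested probes. R 4.3.3 was used, and files were read with its package data.table (version 1.17.8). A gene is reported by its tested probe with the highest mean. The fit was tested on simulated data, and plots were drawn with matplotlib 3.10.9 in Python 3.11.15. The number of arrays limits the precision.

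The members and lists were chosen with earlier results of these data known. Named genes were Lpcat1, the members, the 3 genes with the largest difference in each role group, and defining cell type markers, some of which are not reported here. Replicate numbers, which are slide columns, pair the arrays: deviations from group means correlated with r of 0.172 to 0.337 within numbers (4 of 4 pairs above 0.1) and -0.337 to 0.117 between numbers. The alternatives were normexp background correction (offset 50), quantile normalization, a percentile set by the probes well above background throughout, no filter on dim probes, a filter requiring all 8 arrays, eBayes with trend and robust options, the methods' t-test, a block for replicate number, the authors' values, the mean of a gene's probes, and each array left out. Whole-retina arrays are not analysed here.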

Additional observations from a re-analysis of the deposited data

Results flagged for a closer look

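Of 108 groups of 4 values examined, 8 held a value far from the other 3 by Dixon's criterion, where chance gives 5.4. Among the ribbon synapse genes, Cacna2d4 read 2.80 on KO array 4 against 2.67 to 2.68 on the other KO arrays, the dim Pclo probe named by NM_011995 read -4.55 on KO array 1 against -4.06 to -4.02, and the untested Bsn probe named by XM_006511634 read -7.29 on HZ array 4 against -7.85 to -7.80. Among the wider synaptic genes, Cacna2d2 read 1.74 on HZ array 3 against 1.52 to 1.56, Napa read 5.02 on HZ array 4 against 4.69 to 4.74, and Nrxn3 read 1.98 on KO array 2 against 2.48 to 2.57. Nt5e, the gene of the surface protein used for the isolation, read 4.05 on KO array 1 against 4.25 to 4.29 on the other KO arrays. On HZ array 4, 498 spots carried the mark for non-uniform signal, where the remaining HZ arrays had 2 to 23.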

How the results depend on the processing

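For 35 single values, 622 alternatives gave the same direction and side of the threshold in 603 cases and the opposite direction in 19, and none passed the stricter thresholds. The t-test, the trend and robust eBayes, the replicate block and the other filters kept the same difference, so these could not turn a sign. The count of 603 is therefore no measure of how stable the signs are. The opposite signs under normexp background correction were Cacna1f 0.033, Cacna2d4 -0.18, Lpcat1 0.0049, Gnao1 -0.013, Elfn2 0.061, Sv2b 0.060, Stx1a 0.020 and Napa -0.14, and under quantile normalization Stx3 -0.036 and the dimmer NM_001110796 probe of Pclo 0.013. With single arrays left out, the lowest and highest values were -0.021 and 0.091 for Stx3, -0.14 and 0.11 for that Pclo probe, and -0.0073 and 0.46 for the NM_011995 probe of Pclo. For Lpcat1 they were -0.097 and 0.022, and for Rims1 -0.036 (without KO array 2) and 0.81. The cause was not tested.

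Over all tested probes, the stricter thresholds called 0 probes by limma (2803 at an unadjusted p of 0.05), 2 after quantile normalization, 17 after normexp background correction, 2 by the methods' t-test and 3 with trend and robust eBayes. The looser thresholds called 357 probes, 41 with no filter on dim probes, 1167 in the fit with a replicate block, and 0 to 1734 with each array left out (1734 without HZ array 2, 1 without HZ array 1, 0 without HZ array 3, KO array 3 or KO array 4, 197 without KO array 1 and 57 without KO array 2). With each array left out, 2018 to 4997 probes passed the unadjusted p, and groups did not overlap for 8.14% to 16.9% of probes against 6.33% with all arrays, which follows in part from fewer arrays. Without HZ array 2, 4 member probes did not overlap. The median of the vesicle fusion genes was 0.013 after normexp background correction and -0.068 to -0.011 with arrays left out, and that of the vesicle and glutamate genes was -0.026 after quantile normalization and -0.018 to 0.058 with arrays left out. The replicate block changed no call of a member and, among the role genes, added the call of Ppfia2 at the looser thresholds. Genotype and place on the slide cannot be told apart, and 4 arrays in a group limit what could be called.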
